A study of Mus musculus with 2 samples.

Results

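The regions described here are 14583 DNase I hypersensitive sites (DHSs) of the mouse adrenal gland that lay between genes, 10 to 100 kb from the nearest start of a protein-coding gene, and were called in both libraries of the study. A DHS is a short stretch of DNA that the enzyme DNase I cuts often in isolated nuclei, because no nucleosome covers it. The sites were chosen by peak calls and by position: each is an autosomal DHS of the longer deposited list of replicate 1 that overlapped a DHS of the longer list of replicate 2 by at least 1 bp, with its centre outside every protein-coding gene body of GENCODE release M21. They make up 18.3% of the 79479 autosomal DHSs shared by the libraries, and 59.96% of the 24322 replicate 1 DHSs at such positions. Being open in both libraries is therefore part of the choice and not a result, and all heights below are descriptions.

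The samples were adrenal glands of 2 male mice of the hybrid strain B6CASTF1/J, aged 25 days, with 1 library each, and no treatment or second tissue. The labels number the mice separately and call them biological replicates, yet give both the same donor code, so the spread between the libraries may be partly technical. With a single group of 2 libraries no contrast between conditions could be tested and no p-value is given. The adrenal gland has an outer cortex of steroid-producing cells and an inner medulla of chromaffin cells, with vessels, nerve fibres and a capsule. In whole tissue, fewer cells of a type and less accessible DNA per cell cannot be told apart.

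The 8 cortical marker genes (Nr5a1, Star, Cyp11a1, Cyp11b1, Cyp21a1, Mc2r, Mrap and Scarb1) all had a DHS within 1 kb of a start in both libraries, with summed promoter heights of 48.8 and 26.5. Of the chromaffin markers, Th, Dbh and Chga were open in both libraries, whereas Pnmt had no promoter DHS in either. All 4 endothelial markers were open in replicate 1 and 3 in replicate 2. Neither of the 2 kidney markers (Umod, Slc12a1) nor the 2 liver markers (Alb, Apoa1) had a promoter DHS, and of 3 leukocyte markers only Cd3e had one, at 0.577 in replicate 2. The longer lists held 130945 and 157786 DHSs in replicates 1 and 2. Height is the deposited peak signal, and it was a whole multiple of 0.00833 in replicate 1 and of 0.00888 in replicate 2, so that the median height of the shared intergenic sites equals 176 and 127 such steps.

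As background, DHSs far from gene starts include enhancers, which transcription factors bind to raise the activity of a gene that may be nearby or distant, and insulator sites, where the zinc finger protein CTCF holds the bases of chromatin loops. In the adrenal cortex the nuclear receptor SF-1, encoded by Nr5a1, binds many enhancers of steroidogenic genes, and AP-1, a dimer of Fos and Jun proteins, acts in many tissues when cells are stimulated. Factors of the nuclear factor I (NFI) family bind a palindrome or one of its arms. A footprint is a short run of bases inside a DHS that is cut less than its surroundings, as when a bound protein shields the DNA.

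The following sites show examples of sequences named in the results, with matches sought over the whole DHS. For each consensus, the site is the strongest one whose middle 32 bases occur once in the genome and whose match lay inside a footprint of both libraries. Capitals mark the match and the rest is in lower case. Sequences are the plus strand of the reference, mm10 (GRCm38.p6), read 5′ to 3′, and do not show CAST alleles.
CTCF consensus, near Gm15319, chr8:20424741-20424920: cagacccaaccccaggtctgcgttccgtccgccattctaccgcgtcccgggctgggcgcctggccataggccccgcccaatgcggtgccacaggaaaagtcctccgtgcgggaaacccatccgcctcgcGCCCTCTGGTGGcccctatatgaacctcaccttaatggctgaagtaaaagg
SF-1 consensus, near Calr4, chr4:109222121-109222280: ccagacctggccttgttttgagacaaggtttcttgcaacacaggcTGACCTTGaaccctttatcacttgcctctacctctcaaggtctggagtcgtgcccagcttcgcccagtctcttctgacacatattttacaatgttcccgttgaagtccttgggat
SF-1 consensus, second form, near Psap, chr10:60262501-60262680: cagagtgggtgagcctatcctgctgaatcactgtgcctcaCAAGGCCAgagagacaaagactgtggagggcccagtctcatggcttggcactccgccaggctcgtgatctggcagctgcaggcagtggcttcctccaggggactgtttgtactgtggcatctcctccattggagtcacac
AP-1 consensus, near Doc2b, chr11:75812021-75812200: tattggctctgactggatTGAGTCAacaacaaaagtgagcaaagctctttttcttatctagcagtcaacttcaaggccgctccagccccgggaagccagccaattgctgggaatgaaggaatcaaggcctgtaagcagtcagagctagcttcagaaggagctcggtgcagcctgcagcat
NFI palindrome, near Rgs2, chr1:143941601-143941780: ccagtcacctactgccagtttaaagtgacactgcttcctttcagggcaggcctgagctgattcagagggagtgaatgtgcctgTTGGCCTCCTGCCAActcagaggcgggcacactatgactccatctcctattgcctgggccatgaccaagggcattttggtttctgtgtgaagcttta
NRF1 consensus, near Cstad, chr2:30658501-30658720: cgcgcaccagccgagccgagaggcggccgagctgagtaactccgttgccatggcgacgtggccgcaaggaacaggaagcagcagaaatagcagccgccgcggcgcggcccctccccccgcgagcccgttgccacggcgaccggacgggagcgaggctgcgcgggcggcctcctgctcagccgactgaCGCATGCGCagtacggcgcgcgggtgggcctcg

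The CTCF site lay 61.6 kb upstream of Gm15319 and 17 bp from the start of the transcribed pseudogene 2610005L07Rik. Its height of 47.2 in replicate 1 was the highest of all the shared intergenic sites, against 18.7 in replicate 2. The SF-1 site lay 12.3 kb upstream of the nearest GENCODE start of Calr4, inside a longer Calr4 transcript of RefSeq but in no exon, and was about as high in replicate 2 (5.88) as in replicate 1 (5.54). The site of the second SF-1 form lay 15.0 kb upstream of Psap, the gene of the lysosomal protein prosaposin, with heights of 16.9 and 10.9. The AP-1 site had heights of 18.2 and 10.6 and the NFI site 6.82 and 4.87, both within RefSeq lncRNA models (Gm12339 and Gm41964) and outside their exons. The NRF1 site, 63.6 kb from the nearest protein-coding start and in an exon of the lncRNA Gm14486, had 28.3 and 25.1. Its match lay outside the central 150 bp, so the site is not among those counted below as having NRF1 letters.

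Consensus sequences were searched on both strands in the 150 bp around each centre, and the same was done in 27733 windows that lay 2 kb away on either side and touched no DHS. The letters searched were CAAGGTCA and, as the second form, CAAGGCCA for SF-1, TGANTCA for AP-1, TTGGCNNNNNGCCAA for the NFI palindrome and TTGGCA for its arm, CAGCTG for one class of E-box, AGATAA for GATA factors, TGACGTCA for the cyclic AMP response element (CRE), GCGCATGCG for NRF1, GGGGCGGGG for SP factors, GGAATG for TEAD factors, TGTGGTT for RUNX factors and TAATTA for homeodomain factors. CTCF was searched by its usual consensus, which has degenerate positions. The arm TTGGCA can overlap the palindrome, and the other words named here were counted each on its own. A match says that the letters are present and not that a protein was bound.

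CTCF letters were frequent in the sites and nearly absent from the sequence around them. Its consensus was present in 1365 of 14583 sites (9.36%, 95% Wilson interval 8.90% to 9.84%), in 16 of the 27733 flanking windows (0.0577%) and in 4.89% of the 64896 other shared DHSs. Wilson intervals here and below cover counting error only. By class, the share was 10.3% in shared intergenic DHSs 1 to 10 kb from a start, 7.04% in introns, 6.44% in exons, 5.44% in intergenic DHSs beyond 100 kb and 1.08% within 1 kb of a start. Among 8-letter words present in at least 2% of sites, counted without any list of factors, GCGCCCCC had the highest ratio to the flanks, in 2.73% of sites against 0.0613%. It was present in 3.29% of the other shared DHSs. The AP-1 word GTGACTCA came to 5.19% against 0.710%, and to 3.71% in the other shared DHSs.

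AP-1 letters were found in 15.7% of the sites (15.1% to 16.3%), against 4.38% of flanks and 11.4% of the other shared DHSs. That value lay between those of introns (17.05%) and intergenic DHSs beyond 100 kb (17.8%) on one side and promoters (3.43%) on the other. The SF-1 consensus was present in 452 sites (3.10%, 2.83% to 3.39%) and in 1.13% of flanks, and the second form in 651 (4.46%) and in 1.93%. At 4.05% and 5.55%, both forms were more frequent in intronic DHSs. The NFI arm was present in 15.9% of sites and 7.15% of flanks, and the full palindrome in 23 sites and in 0 flanks. The E-box CAGCTG reached 16.1% against 6.83%.

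Words of factors that bind many promoters were rare in the sites but more frequent than in the flanks, at 1.90% against 0.429% for SP, 0.549% against 0.126% for CRE and 0.357% against 0.0252% for NRF1. The other shared DHSs, which include the promoters, had more of each, at 6.37%, 0.978% and 0.832%. Some words were about as frequent as in the flanks or rarer. TEAD letters were present in 8.63% of sites and 8.08% of flanks. The AT-rich words AGATAA for GATA factors (5.06% against 8.13%) and TAATTA (1.48% against 3.94%), and the RUNX word (3.13% against 4.05%), were less frequent inside the sites. Base composition differed in the same direction, with 54.3% G and C bases in the sites and 45.3% in the flanks, and its part in these shares was not tested. Repeats (soft-masked bases) covered 8.84% of the bases of the sites and 30.2% of those of the flanks.

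Of all sites, 6124 (42.0%) held at least 1 of 4 consensus groups, namely CTCF, AP-1, either SF-1 form or the NFI arm, compared with 14.0% of flanks and 31.3% of the other shared DHSs. Either SF-1 form was present in 1076 sites (7.38%), and SF-1 and AP-1 letters shared 198 sites (1.36%). CTCF shared 44 sites with AP-1 and 30 with SF-1.

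**Figure D1:**
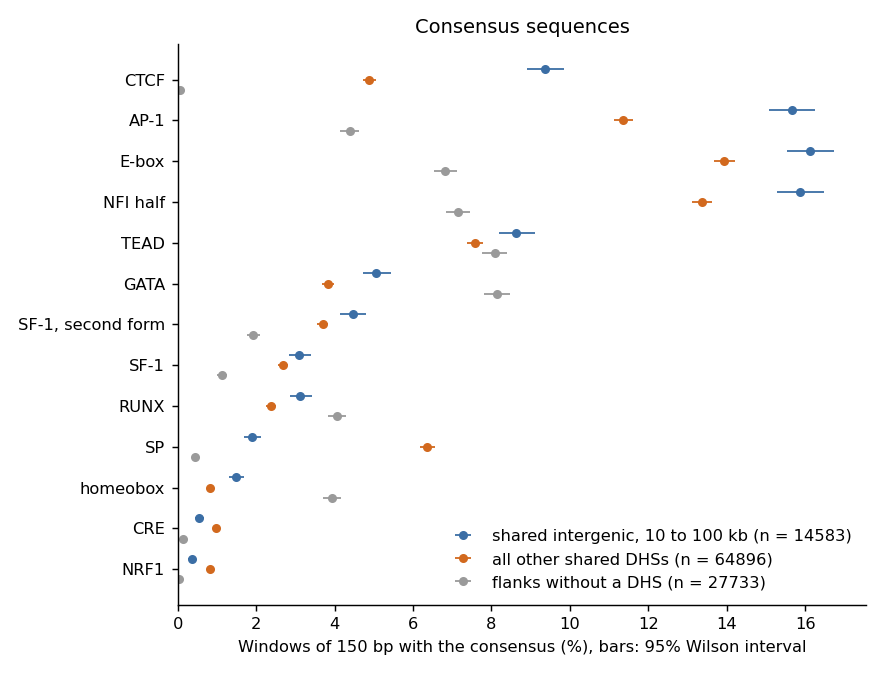
Share of 150 bp windows with each consensus (x axis, %) in the 14583 shared intergenic sites, the 64896 other shared DHSs and the 27733 flanks, with 95% Wilson intervals as bars. CTCF is nearly absent from the flanks, AP-1, the E-box, the NFI arm and both SF-1 forms are more frequent in the sites than in the flanks, and GATA, RUNX and homeobox words are less frequent.

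The matches were concentrated at the centres. In the central 40 bp, CTCF matches numbered 36.2 per 1000 sites in each 20 bp bin, against 0.243 in bins more than 300 bp away. In the same comparison, AP-1 had 30.6 and 6.43, the NFI arm 34.1 and 10.9, the second SF-1 form 9.39 and 2.55 and SF-1 5.28 and 1.78. AGATAA went the other way, with 4.83 per 1000 in the central bins and 11.2 outside.

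**Figure D2:**
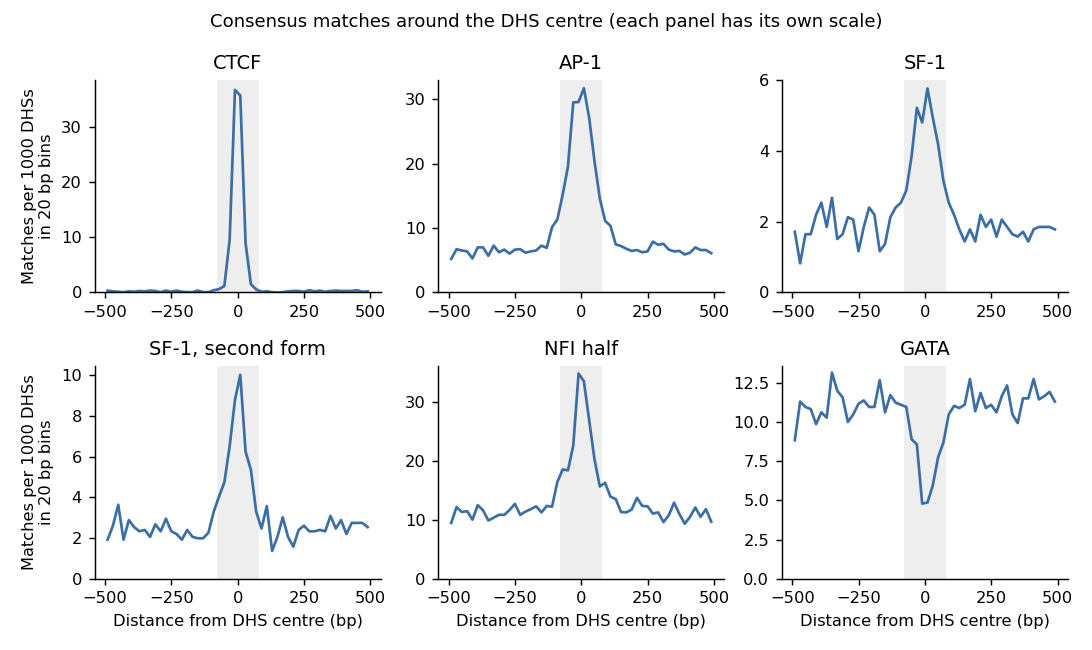
Matches per 1000 shared intergenic sites in 20 bp bins (y axis) against the distance from the DHS centre in bp (x axis), with the 150 bp search window shaded and a scale of its own in each panel. CTCF, AP-1, both SF-1 forms and the NFI arm peak at the centre, and GATA dips there.

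Footprints were present in most sites, in 90.1% for replicate 1 and 77.1% for replicate 2. Shared DHSs within 1 kb of a start had 83.1% and 74.6%, those beyond 100 kb 83.2% and 68.3%, intronic ones 89.1% and 75.9%, and intergenic ones 1 to 10 kb from a start 91.5% and 79.3%. DHSs at the same kind of position called only in replicate 1 had a replicate 1 footprint in 66.5%, and those called only in replicate 2 a replicate 2 footprint in 51.7%. Replicate 1 had 272597 footprints in all and replicate 2 had 184847, with median widths of 10 and 8 bp, so a match of given length fits less often into a footprint of replicate 2.

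CTCF letters had the highest share wholly inside a footprint of replicate 1 among the words searched, and NRF1 letters and the NFI palindrome the highest shares in replicate 2. Matches were counted here over the whole DHS and not in the 150 bp window, so their numbers differ from the counts of sites above. Of 1389 CTCF matches, 85.7% lay inside a footprint in replicate 1 and 29.2% in replicate 2, where 6.94% and 1.34% of all 12 bp stretches of the sites did. A footprint touched 96.1% and 78.0% of these matches. NRF1 letters followed with 77.3% and 43.2% of 88 matches, then the 21 NFI palindromes with 71.4% and 42.9%, and CRE with 51.1% and 16.7% of 90 matches.

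For SF-1, 17.6% (14.5% to 21.05%) of 524 matches lay inside a replicate 1 footprint and 4.01% (2.64% to 6.05%) inside a replicate 2 footprint. All 8 bp stretches came to 10.1% and 2.75%, and the replicate 2 interval for SF-1 includes the latter value. The second form gave 17.0% and 4.85% of 742 matches. AP-1, despite its frequency, gave 15.0% and 3.08% of 2823 matches against 11.3% and 3.49% for 7 bp stretches, above the level of all stretches in replicate 1 and not in replicate 2. The NFI arm reached 27.2% and 15.0% of 2944 matches, against 12.6% and 4.23% for 6 bp stretches. GATA letters were below that level, at 4.63% and 1.26% of 950 matches.

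The heights of the sites spanned a wide range in both libraries. The median was 1.47 in replicate 1 and 1.13 in replicate 2, the quartiles were 0.817 to 3.04 and 0.755 to 1.87, and the highest values were 47.2 and 27.2. The median width was 168 bp. Shared DHSs within 1 kb of a start were higher, with medians of 4.25 and 2.98, and those beyond 100 kb lower, at 0.900 and 0.799. Heights of the 2 libraries went together, with a Pearson correlation of 0.803 between log2 heights and a Spearman correlation of 0.766 over the 14583 sites, which share their library and its depth and are not replicates. Of the sites, 8204 (56.3%) also touched the shorter deposited list of each library. Overlapping records make the sites slightly fewer than their count, since 74 overlapped another one and 136 shared a replicate 2 partner.

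Whether a replicate 1 DHS at these positions was shared varied with its height. Among the tenth with the lowest heights, up to 0.367, 16.2% overlapped a replicate 2 DHS, and among the tenth with the highest, above 4.19, 99.1% did. Just inside the overlap rule, 35 sites overlapping by 1 to 10 bp had median heights of 0.433 and 0.506, and 53 unshared DHSs within 10 bp of a replicate 2 DHS had 0.608 and 0.648. At the near distance limit, the medians were 1.80 and 1.26 at 10 to 11 kb (449 sites) and 1.84 and 1.35 at 9 to 10 kb (430 shared intergenic DHSs). At the far limit they were 1.16 and 1.01 at 95 to 100 kb (293 sites) and 1.26 and 0.959 in the next 5 kb (281).

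Most sites were lower in replicate 2, and sites with CTCF letters more so than others. The median log2 ratio of heights, replicate 2 over replicate 1, was -0.34 with an SD over sites of 0.78, and 68.3% of sites were lower in replicate 2. Over all autosomal shared DHSs the median was also -0.34. Sites with the CTCF consensus had median heights of 3.35 and 1.43 and a median log2 ratio of -1.13, and 91.9% of them were lower in replicate 2. The 13218 sites without it had -0.28. Dividing each height by the summed height of its library adds 0.40 to every log2 ratio, which turns the median of all sites to 0.06 and that of sites without CTCF letters to 0.12, and leaves sites with CTCF letters at -0.73.

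The ratio also moved with height. From the weakest to the strongest quintile of sites by mean height, the median log2 ratio went from 0.09 through -0.12, -0.34 and -0.62 to -0.80. Along the same quintiles the CTCF share was 3.05%, 4.29%, 7.34%, 14.2% and 17.9%. Within each quintile, sites with CTCF letters had a lower median ratio than sites without: -0.26 against 0.11 in the weakest, -0.99 against -0.31 in the middle and -1.27 against -0.70 in the strongest. In the strongest quintile, 99.0% of 523 CTCF sites were lower in replicate 2, and 89.5% of 2394 others. The same order held in each other class of shared DHSs, for example at -1.06 against -0.22 in introns and -0.91 against -0.41 within 1 kb of a start.

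Sites with SF-1 or AP-1 letters lay on the other side of the middle. Their median log2 ratios were -0.11 and -0.15, and 58.8% and 60.3% were lower in replicate 2. Their shares were lower in the strongest than in the weakest quintile: SF-1 letters were present in 3.05% of the weakest quintile and 2.06% of the strongest, and AP-1 letters in 15.8% and 13.4%. The decline was not steady, since both shares were highest in quintile 2, at 4.18% and 17.5%. In the 2 weakest quintiles the ratio was about the same with and without SF-1 letters, at 0.09 and 0.09 and then -0.11 and -0.12. It was -0.15 with and -0.35 without in quintile 3, -0.19 and -0.63 in quintile 4 and -0.49 and -0.81 in the strongest. With and without AP-1 letters it was 0.13 and 0.09 in the weakest quintile, -0.23 and -0.70 in quintile 4 and -0.55 and -0.85 in the strongest. Intergenic DHSs called only in replicate 2 had CTCF letters in 0.451% of cases, against 3.30% of those called only in replicate 1. With 1 library per mouse, differences between the mice and between the library preparations cannot be told apart.

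**Figure D3:**
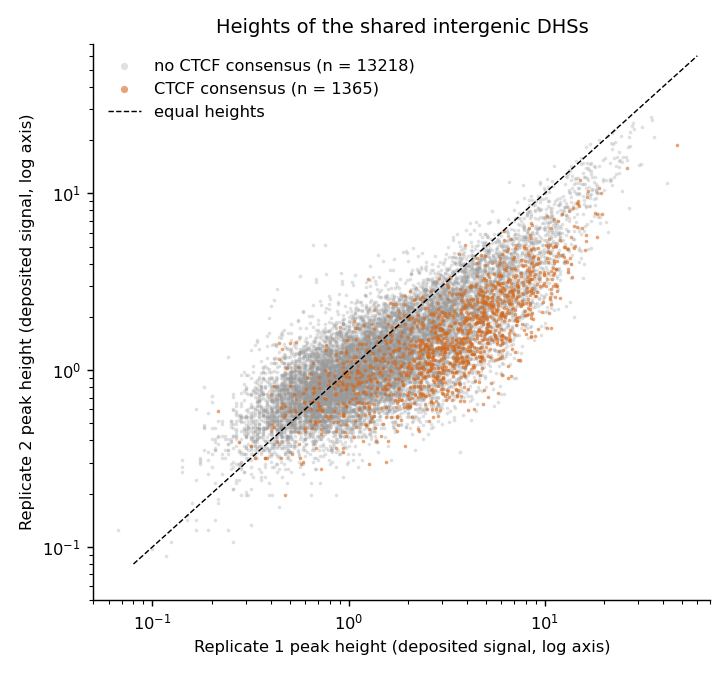
Height of each of the 14583 sites in replicate 1 (x axis) and replicate 2 (y axis), deposited signal on log axes, with the 1365 sites with the CTCF consensus in orange and a dashed line of equal heights. Most orange points lie below the line, and their median log2 ratio is -1.13.

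**Figure D4:**
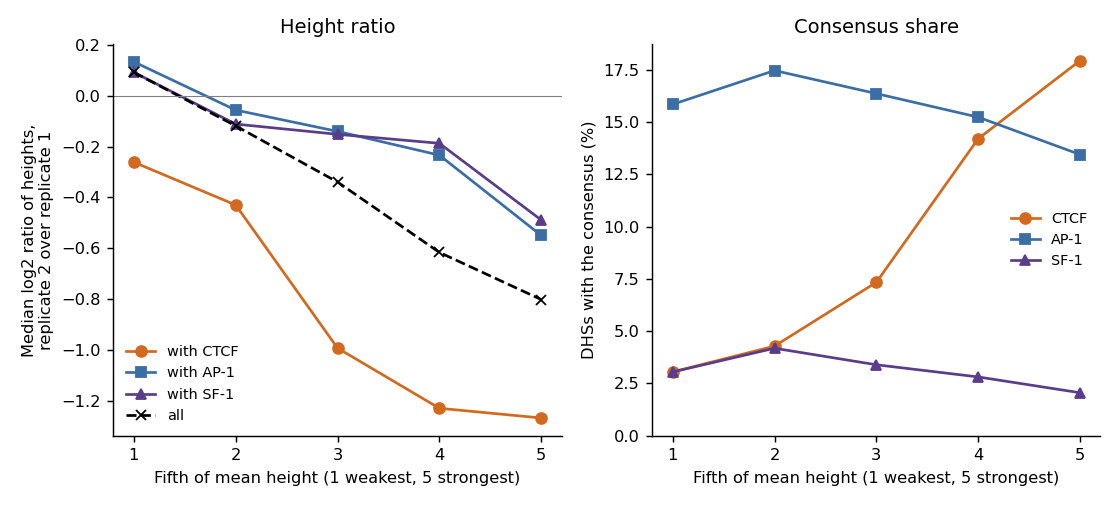
Median log2 ratio of heights, replicate 2 over replicate 1 (left), and share of sites with a consensus in % (right), by quintile of mean height from weakest to strongest. CTCF sites lie below all sites in every quintile, SF-1 and AP-1 sites lie above all sites in the 3 strongest quintiles, and the CTCF share goes from 3.05% to 17.9%.

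The largest single ratios named genes of different kinds. Among sites of above-median mean height, the lowest ratios were -3.14 near D130040H23Rik (heights 5.78 and 0.657), -3.13 near Olfr1423, -3.07 near Slc47a1, -3.03 near Il20rb and -3.00 near Fam76a. The highest were 2.95 and 2.75 in overlapping records near Rpl11, which share 1 partner of height 5.10, then 2.59 near S100a11 (0.567 and 3.41), 2.25 near Fasl (0.683 and 3.26) and 2.21 near Tspoap1, close to the microRNA host gene Mir142hg. Fasl encodes a death ligand of cytotoxic lymphocytes and Mir142hg hosts a microRNA of blood cells. Neither library had a promoter DHS at the leukocyte marker Ptprc, and the part of such cells in these ratios was not tested.

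The sites were denser near gene starts. Intergenic sequence at 10 to 100 kb from a start came to 510.8 Mb, which gives 28.5 sites per Mb. The density was 32.4 per Mb at 10 to 20 kb and 20.8 at 90 to 100 kb, and the median heights were 1.72 and 1.26 in the nearer and 1.11 and 0.946 in the farther bin. A share of 61.4% lay upstream of the nearest start, where 64.3% of the available sequence lies. They also came in groups, since 47.0% had another such site within 5 kb.

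Sites were more frequent beside genes with an open promoter. The nearest gene had a promoter DHS in both libraries for 11783 sites (80.8%, 80.2% to 81.4%), whereas 68.0% of the available sequence lies nearest to such genes. This corresponds to 33.9 sites per Mb near open genes and 17.1 near others. Unshared DHSs at the same positions had lower shares, 75.4% in replicate 1 and 68.7% in replicate 2, and shared DHSs beyond 100 kb a higher one, 84.3%. The weakest quintile of sites had 75.01% and the other 4 quintiles 82.0% to 83.1%. The nearest start is an assignment by distance and does not show which gene a site acts on.

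Of 20698 autosomal protein-coding genes, 5811 had at least 1 of the sites, 28.1% of all, and 2490 of them had exactly 1. A gene can only have one where it has available sequence, which 13289 genes did. The 756 genes with 5 or more sites held 36.7% of them. Ppara, encoding the fatty acid sensor PPAR-alpha, had 29 sites within 57.7 kb, with heights of 0.350 to 11.8 (median 2.32) in replicate 1 and 0.240 to 8.57 (median 1.77) in replicate 2. Of the 29, 23 were lower in replicate 2 and 15 had a footprint in both libraries. Some lay close to starts of noncoding genes, for example 372 bp from the lncRNA Lncppara and 512 bp from the microRNA gene Mirlet7c-2. Next came the neighbours Tomm20 with 22 and Irf2bp2 with 20, and another pair of neighbours, 1700001O22Rik with 20 and Cstad with 19. Irf2bpl had 19, Tbx3, a T-box factor gene, 18, and Ptpn1, Sik1 and Zc3h12a 16 each. Sik1 encodes a salt-inducible kinase of the cyclic AMP response.

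Around the genes of steroid synthesis, sites were concentrated at few genes. Of 16 genes, 4 had a site (25.0%), near the share of all genes, but 5 of the 16 had no available sequence, among them Star and Cyp11b1. The 23 sites amounted to 75.7 per Mb, against 28.5 for all genes, with median heights of 2.22 and 1.41. Scarb1, the receptor that takes up cholesterol from high-density lipoprotein, had 11, with heights of 1.21 to 6.58 (median 4.23) in replicate 1 and 1.07 to 4.88 (median 1.86) in replicate 2. All 11 had a footprint in both libraries, and 10 were lower in replicate 2. The Scarb1 site with the highest mean height (chr5:125252701-125253000) had 5.25 and 4.88 and 5 footprints in each library, and no SF-1 form, AP-1, NFI arm or CTCF consensus was found in it.

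Fdx1, encoding the ferredoxin that passes electrons to mitochondrial steroid hydroxylases, had 10 sites, with medians of 1.22 and 1.10, and its strongest (chr9:51977521-51977680, 14.0 kb upstream) had 7.93 and 3.05. Cyp11a1, the enzyme of the opening step of steroid synthesis, had 1 site, 15.8 kb upstream of its nearest GENCODE protein-coding start and 7.39 kb from a RefSeq start of the gene, at heights of 2.02 and 1.94. It is shown because it is the sole site of this gene, with the CTCF consensus and an E-box in capitals, and it had 3 footprints in replicate 1 and 1 in replicate 2.
Cyp11a1 site, chr9:57990541-57990720: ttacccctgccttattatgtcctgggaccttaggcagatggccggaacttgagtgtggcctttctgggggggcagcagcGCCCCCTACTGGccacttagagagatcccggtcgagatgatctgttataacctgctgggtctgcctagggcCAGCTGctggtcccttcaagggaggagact

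Among 16 regulators of the cortex, 11 had a site (68.8%, against 28.1% of all genes), with 39.4 sites per Mb against 28.5 for all genes. The list of 10 kidney genes also had 39.4 per Mb, from 3 sites. Nr5a1 had 2, 22.1 and 26.3 kb downstream of its nearest start, with heights of 1.63 and 1.72 in replicate 1 and 1.33 and 1.58 in replicate 2. Mc2r, the receptor for corticotropin, had 10 upstream sites within 43.0 kb, of which the strongest, 64.7 kb from the start, had 6.55 and 3.85 against promoter heights of 0.458 and 0.666. Of the 10, 9 were lower in replicate 2. Gata6, a cortical GATA factor gene, had 6 sites, at 0.525 to 2.02 and 0.409 to 1.71.

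Genes of the zones and of the medulla had fewer sites per Mb than the regulators. Of 16 zone markers 10 had a site (62.5%, against 28.1% of all genes), 34.8 per Mb. Dab2, a marker of the zona glomerulosa, had 4, of which one 61.4 kb upstream with the CTCF consensus stood at 10.7 and 4.57, and the medians of the 4 were 0.475 and 0.799. Akr1b7, an aldose reductase of the zona fasciculata, had 2, the higher at 1.07 and 0.968, and Agtr1b, an angiotensin receptor gene, had 0 in 90.0 kb. Of 22 chromaffin genes 10 had a site (45.5%, against 28.1% of all genes), and 19 of the 22 had an open promoter. Their density of 14.4 sites per Mb was below the 28.5 of all genes. Dbh, which makes noradrenaline, and Chga, a granule protein gene, had 1 site each, at 2.01 and 1.02 and at 1.37 and 0.773, while Th had 0 in 77.1 kb.

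Of the 20 lists, genes of rapid response to stimuli had the largest share of genes with a site. They also had more available sequence, with a median of 44.3 kb per gene against 6.04 kb for all genes. The part of available sequence in this share was not tested. In sites per Mb, housekeeping genes (79.4), steroid synthesis genes (75.7), genes of NFI, TEAD and AP-1 factors (64.6) and adipocyte genes (57.5) stood higher. Of 18 immediate early genes, 15 had a site (83.3%, against 28.1% of all genes), at 54.8 per Mb, and all 18 had an open promoter. Fos had 8, with heights of 0.525 to 22.2 and 0.640 to 13.8, and Egr1 had 3, at 1.04 to 22.5 and 1.17 to 12.3. Nr4a1, an orphan receptor gene induced by corticotropin, had 3 sites in 5.04 kb of available sequence. Of 14 genes of protein kinase A signalling and phosphodiesterases, 10 had a site (71.4%, against 28.1% of all genes), at 42.9 per Mb against 28.5.

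Of 19 clock genes, 10 had a site (52.6%, against 28.1% of all genes), at 45.4 per Mb, and Arntl, which encodes the activator BMAL1, had 11, with heights of 0.617 to 7.57 in replicate 1 and 0.524 to 1.45 in replicate 2. The highest, 63.8 kb upstream, stood at 7.57 and 1.24, a log2 ratio of -2.61. Per1, Dbp and Nr1d1, with 0 to 0.0920 kb of available sequence, had none. Of 18 genes of cholesterol synthesis and uptake, 6 had a site (33.3%, near the 28.1% of all genes), at 38.7 per Mb, among them Sqle, squalene epoxidase, with 5, and Srebf2, which has no available sequence, had none.

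The remaining lists ranged from 79.4 per Mb for 16 housekeeping genes to 0 for 8 keratinocyte genes. The 199.7 kb of the keratinocyte genes allow up to 15.0 sites per Mb. Of the housekeeping genes, 5 had a site (31.25%, near the 28.1% of all genes). Of their 21 sites, 14 lay nearest to Ywhaz, a gene singled out after its value was seen. Ywhaz has 159.7 of the 264.3 kb of available sequence of this list. Endothelial genes had 37.0 per Mb, with 8 sites at Kdr, a receptor for vascular endothelial growth factor. Capsule and fibroblast genes had 23.8, liver genes 26.5, and leukocyte genes 27.2 from 4 sites. Genes of other tissues lay on both sides of the value of all genes, with 39.4 for kidney, 32.1 for brain neurons and 15.2 for skeletal muscle, from 3, 11 and 1 sites. Adipocyte genes had 57.5, of which 13 of 15 sites lay nearest to Lep, a gene singled out after its value was seen. These counts describe lists of 8 to 22 genes that differ in available sequence, and no list was tested.

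**Figure D5:**
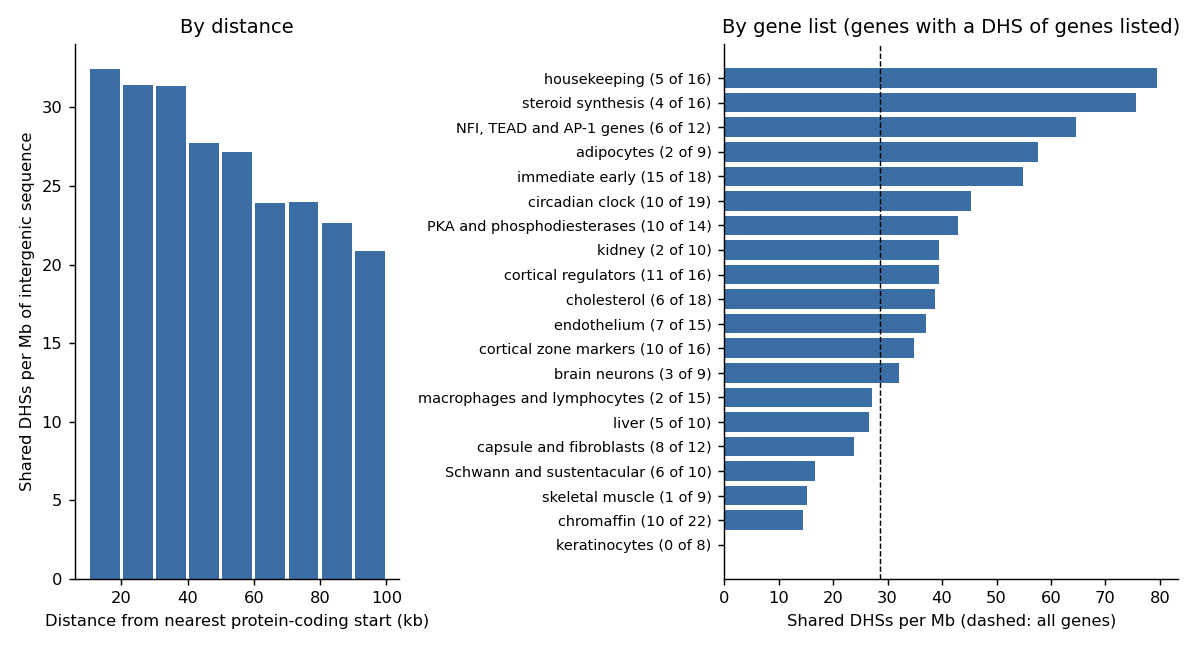
Shared intergenic sites per Mb of available sequence (left: y axis, by distance from the nearest protein-coding start in kb; right: x axis, by gene list, with the number of genes that have a site of the genes listed). Density goes from 32.4 per Mb in the nearest to 20.8 in the farthest bin, and the lists range from 0 for keratinocyte genes to 79.4 for housekeeping genes around 28.5 for all genes (dashed line).

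The strongest sites were rich in CpG dinucleotides, and some lay at annotated starts of transcripts that the choice of sites did not use. Among the 10 strongest with middle bases found once, 9 had 8 or more CpG in 150 bp and 5 lay within 1 kb of such a start. These were the sites nearest to Cct8l1 (heights 34.8 and 27.2, 282 bp from the lncRNA 1700096K18Rik), Nacc2 (35.3 and 25.8, 80 bp from Tmem250-ps), Gm15319 (47.2 and 18.7), Tmpo (36.1 and 20.9, 79 bp from a RefSeq start of Tmpo) and Chd2 (27.1 and 22.2, 186 bp from 1810026B05Rik, the lncRNA Chaserr of RefSeq). The others lay nearest to Zfp395 (31.4 and 23.7), Cstad, Ccne1 (28.0 and 24.0), Irf2bp2 (28.7 and 23.1) and Rbx1 (26.9 and 20.9). The Irf2bp2 site had 4 CpG and lay 63.1 kb from any RefSeq start.

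Over all sites, 2001 (13.7%) lay within 1 kb of another annotated start of GENCODE or RefSeq, 12.9% in the weakest quintile and 20.1% in the strongest. They had median heights of 1.65 and 1.31, against 1.43 and 1.11 for the 12582 others, and a mean of 6.09 CpG against 3.32. NRF1, CRE and SP letters were more frequent in them (0.9495%, 1.00% and 4.05% against 0.262%, 0.477% and 1.56%), and AP-1, SF-1 and CTCF letters less (10.8%, 2.15% and 6.50% against 16.4%, 3.25% and 9.82%). The share of sites with 8 or more CpG was 5.42% in the weakest quintile and 24.9% in the strongest.

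Repeated sequence touched few of the sites. The middle 32 bases occurred once in the genome in 14294 (98.0%), more than once in 289 and 10 or more times in 65. The site with the highest mean height among repeated ones lay 21.6 kb upstream of Igf2bp3, with heights of 41.9 and 11.5, and its middle bases occurred 4 times.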

How the data were processed

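DNase-seq peaks and footprints of 2 adrenal libraries were analysed in mm10. Peak height, the deposited signal of each peak, was in each library a whole multiple of 1 step (within 0.01 of a step for 100% of heights under 3). A scaling to a library total would give such steps, but the deposited text names a read-depth normalization for signal tracks and not for peaks. Every deposited footprint carries the same false discovery rate (q-value) threshold of 0.01, so footprints have no p-value of their own. Both kinds of file were made from the library's own filtered alignments, per the file headers and the text deposited with them. Aligner, peak caller and footprint caller: not given in the sources used here. If a step is read as 1 count on a CPM scale, library totals come to 120.0 and 112.6 M counts, which is inferred.

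The 21924 protein-coding genes and 54340 starts came from GENCODE release M21, other starts also from RefSeq, and sequences and soft-masked repeats from RefSeq GRCm38.p6. The distance to a start was taken from the DHS centre. Available sequence is intergenic, without assembly gaps, and 10 to 100 kb from the nearest start. A promoter was open where a DHS touched the 1 kb around any start in both libraries. Python 3.11.15, numpy 2.4.6, pandas 2.3.3, scipy 1.17.1 and matplotlib 3.10.9 were used, and the procedures were tested on simulated data. Shares carry 95% Wilson intervals. The sites, the 20 gene lists and the 33 consensus sequences were chosen with earlier results of these data known. Printed sequences leave out chromosome 18. Named genes are the first 4 of the cortical, chromaffin, clock, immediate early and cholesterol lists, the first 2 of each other list and the 10 genes with the most sites. Fdx1, Lep and the genes at single sites named by height or ratio come in addition, and some genes that the rule takes are not reported here. Alternatives were the overlap, the gene annotation, the shorter peak list, the distance limits, unique sequence, each library alone, the height scale, the search window and the footprint overlap. The lists of false discovery rates along the genome were not used.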

Additional observations from a re-analysis of the deposited data

How the results depend on the processing

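Of 88 values recomputed under another setting, 52 moved by less than the spread used for comparison, 35 moved by more and 1 reversed. The median log2 ratio of heights reversed to 0.0562 when heights were divided by the library's summed height, was -0.38 with an overlap of at least 50% of each DHS, -0.29 with genes of any biotype and -0.47 with the shorter peak lists. The share of sites with CTCF letters was 10.4%, 8.76% and 12.3% under these last 3 settings. Genes of any biotype gave 3.58% for SF-1, 16.9% for AP-1, 2 steroid synthesis genes with a site and 82.1% of sites beside an open promoter. The shorter lists gave 8213 sites, a median height of 2.11, 16.4% for AP-1 and 76.2% beside an open promoter. Limits of 20 to 50 kb left 6329 sites and 16.3% of genes with one. Windows of 100 bp, of 200 bp and the DHS itself gave 2.30%, 3.82% and 3.50% for SF-1 and 12.2%, 17.9% and 16.9% for AP-1. Counting matches that touch a footprint gave 31.8% for SF-1, a mean of both libraries, against 10.8% for matches wholly inside. With either library alone, sites numbered 24322 to 28333, their median height was 0.693 to 0.900, 65.6% to 80.6% had a footprint, SF-1 letters were present in 2.59% to 2.89%, AP-1 in 12.1% to 13.7% and CTCF in 5.02% to 6.93%, SF-1 matches inside footprints were 3.92% to 14.5%, 35.7% to 39.0% of genes and 4 to 5 steroid synthesis genes had a site, and 77.3% to 82.4% lay beside an open promoter. The cause of these differences was not tested, apart from the setting's own construction. No paired analysis was possible because the 2 libraries form a single group. The number of libraries limits all values, and weak DHSs were shared less often than strong ones.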
